A study of Capra hircus with 12 samples.

Results

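The miR-99 and miR-100 family was examined in small RNA libraries of secondary hair follicles, the follicles that grow the fine cashmere of goats. Members were the miRNAs whose deposited names begin with chi-miR-99a, chi-miR-99b or chi-miR-100, either arm. Of the 376 miRNAs listed, 5 were members, namely chi-miR-99a-5p, chi-miR-99a-3p, chi-miR-99b-5p, chi-miR-99b-3p and chi-miR-100-5p, and a 3p arm of miR-100 is not among the names. The libraries came from untreated Liaoning cashmere goats of 1.5 years, sampled in 6 months with 1 female and 1 male library per month, 12 in all. February and March formed the telogen group (4 libraries), May was early anagen (2 libraries), September was mid-anagen (2 libraries), and November and December formed the catagen group (4 libraries). The study selected male and female goats at each time point and describes the male and the female library as its replicates, but how animals were combined into a library is not given in the sources used here, so the p-values measure the spread between these libraries.

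A miRNA is cut from a hairpin precursor as a duplex of a 5p and a 3p arm, of which usually 1 is kept by Argonaute and guides it to messenger RNAs. The 5p arms of miR-99a, miR-99b and miR-100 share their seed, the stretch near the 5′ end that pairs with targets, and are known to repress mTOR and IGF1R, components of growth factor signalling that also act in skin repair. In vertebrates each gene lies in a cluster with a let-7 gene and a miR-125 gene, and in the goat annotation ARS1.2 MIR99A follows MIR125B and MIRLET7C directly while MIR99B lies next to MIRLET7E. MIR100 lies between unnamed long noncoding RNA genes, with SORL1 as the nearest named protein-coding gene on 1 side. The mature 5p sequences of miR-99a and miR-100 are nearly identical, and how reads matching both were assigned is not given in the sources used here, so each of these counts may hold reads of the other.

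Total counts ranged from 3135292 to 5788032 per library. All 5 members passed the filter on low counts (above 5 CPM, the count scaled to a fixed library size, in at least 2 libraries), as did 300 of the 376 miRNAs. Levels are given as deposited TPM, the same count scaling under the name the authors used. Tests used TMM scaling, which sets libraries so that most miRNAs do not differ, and its factors ran from 0.813 to 1.29 with both May libraries among the highest. Replacing TMM by library totals moved the median log2 fold change of all 300 miRNAs. The move was -0.52 from May to September, -0.35 from telogen to catagen and 0.19 from telogen to May. Shares of all counts and TPM, given first, rest on library totals. Ratios taken within a library need no scaling and are given next, before the tests of levels.

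The family was abundant throughout, and most of it was the 5p arm of miR-99a, at 79.2 to 88.6% of its counts. Together the 5 members made up 4.52% and 4.02% of all counts in the female and male February libraries, 3.36% and 3.87% in March, 2.89% and 2.84% in May, 3.37% and 3.19% in September, 2.89% and 3.09% in November, and 2.82% and 3.33% in December. At these depths the 95% Wilson intervals were narrow, for example 4.51 to 4.54% for the female February library, and cover counting error only. The telogen libraries averaged 3.94% ± 0.479 (SD, n = 4) and the catagen libraries 3.03% ± 0.228 (SD, n = 4), with May at 2.87% ± 0.0382 (SD, n = 2) and September at 3.28% ± 0.13 (SD, n = 2). The lowest telogen library, female March, lay just below the highest September library and above all May and catagen libraries.

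chi-miR-99a-5p, the main product of its precursor, ranked 10th of the 376 miRNAs by mean TPM. Its TPM was 40070 and 34448 in the female and male February libraries, 28496 and 33012 in March, 23540 and 22968 in May, 27122 and 26114 in September, 22894 and 25465 in November, and 22475 and 27024 in December. In TPM every telogen library was above every other library. By month the means ran from February (37259 TPM) through March (30754), September (26618), December (24750) and November (24179) to May (23254), and from September down to May the differences between neighbouring months were within the spread of the pairs.

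chi-miR-100-5p, which carries the same seed, ranked 30th. It stood at 3943 and 3786 TPM in February, 3710 and 3734 in March, 3305 and 3585 in May, 4687 and 4087 in September, 3975 and 3535 in November, and 3943 and 4434 in December, female library first in each month. Both September libraries lay above both May libraries, and telogen and catagen overlapped.

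chi-miR-99b-5p, the third 5p member, ranked 49th. Its TPM was 1112 and 1790 in February, 1251 and 1809 in March, 1939 and 1671 in May, 1834 and 1606 in September, 1985 and 1855 in November, and 1722 and 1770 in December. The female February and female March libraries were the lowest of the 12, and the male libraries of the same months lay among the remaining 10.

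The 3p arms were minor products. chi-miR-99a-3p, ranked 125th, measured 103 and 121 TPM in February, 124 and 144 in March, 137 and 159 in May, then 50.4 and 44.9 in September, 49.5 and 56.4 in November, and 78.2 and 50.3 in December. All 6 libraries of February, March and May lay above all 6 of September to December, and the female December library was the highest of the latter. With TMM scaling these 2 sets of libraries did not overlap either, as for 60 of the 300 miRNAs tested. chi-miR-99b-3p, ranked 219th, was low, at 7.26 and 12.2 TPM in February, 4.91 and 13.6 in March, 9.19 and 7.65 in May, 20.6 and 15.1 in September, 14.2 and 12.1 in November, and 12.2 and 14.4 in December. It rested on 24 to 111 counts per library. In TPM its lowest libraries, female March and female February, were also the lowest of its 5p arm, with male May close at 7.65. By counts its lowest libraries were male May (24) and female March (25), with 42 in female February.

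**Figure D1:**
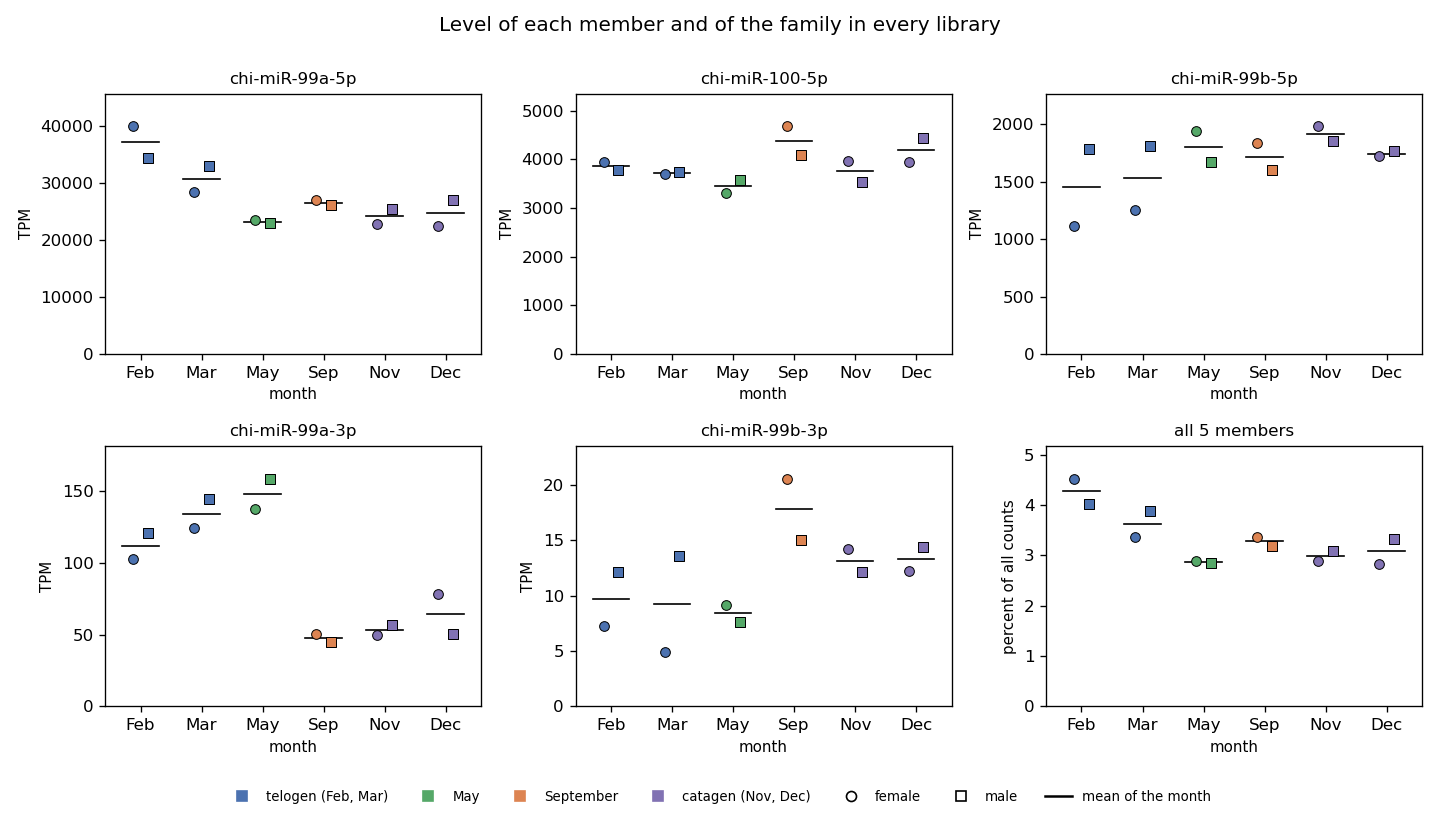
TPM of each member and, in the last panel, the percent of all counts taken by the 5 members (vertical axes, from 0) in the 12 libraries by month; circles are female libraries, squares male libraries, colours the 4 groups and bars the mean of the month. chi-miR-99a-5p is highest in the 4 telogen libraries, and chi-miR-99a-3p lies at or above 103 TPM through May and at or below 78.2 TPM from September.

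The balance between the 5p members shifted through the year, with miR-99a-5p taking less of the family in catagen than in telogen. The number of chi-miR-99a-5p counts per chi-miR-100-5p count was 10.2 and 9.10 in February, 7.68 and 8.84 in March, 7.12 and 6.41 in May, 5.79 and 6.39 in September, 5.76 and 7.20 in November, and 5.70 and 6.09 in December, female library first. The 4 telogen libraries were the 4 highest, the May libraries lay above the September libraries, and catagen overlapped both. On the log2 scale the ratio of chi-miR-100-5p to chi-miR-99a-5p went from -3.15 ± 0.17 (SD, n = 4) in telogen to -2.62 ± 0.16 (SD, n = 4) in catagen. The rise of 0.53 had p = 0.0286 in an exact two-sided permutation test, the smallest that 4 against 4 libraries can give (adjusted p = 0.0381 over the 4 ratio comparisons). Libraries were permuted singly, without regard to month, although each group joins libraries of different months. Leaving out either February library, or the female November or December library, raised the adjusted p to between 0.0571 and 0.0762.

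The same held against chi-miR-99b-5p. Counts of chi-miR-99a-5p per chi-miR-99b-5p count were 36.0 and 19.2 in February, 22.8 and 18.2 in March, 12.1 and 13.7 in May, 14.8 and 16.3 in September, 11.5 and 13.7 in November, and 13.1 and 15.3 in December. All 4 telogen libraries were again the highest, with the female February library far above the rest. The log2 ratio of chi-miR-99b-5p to chi-miR-99a-5p rose by 0.80 from telogen (-4.53 ± 0.45, SD, n = 4) to catagen (-3.74 ± 0.17, SD, n = 4), with p = 0.0286 and adjusted p = 0.0381 by the exact permutation test. The rise was 1.22 in the female libraries alone and 0.37 in the male libraries alone, a difference that was not tested. Without the female February library it was 0.59. The call was lost without either February library, or the female November or December library (permutation test, adjusted p of 0.0571 to 0.0762).

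Set over 6 libraries a side, February to May against September to December, the log2 ratio of chi-miR-100-5p to chi-miR-99a-5p was higher by 0.40 in the later months (-3.02 ± 0.25 and -2.62 ± 0.13, SD, n = 6 each; exact permutation test, p = 0.00866, adjusted p = 0.0346), with overlapping groups. Leaving out a February library or the female November or December library raised this adjusted p to between 0.0519 and 0.0762. For chi-miR-99b-5p the difference of 0.44 did not pass (exact permutation test, n = 6 each, p = 0.0823, adjusted p = 0.0823), while without the female or the male May library it was 0.57 (adjusted p = 0.026) and 0.54 (adjusted p = 0.0411).

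In percent of the family, chi-miR-99a-5p made up 86.1 ± 1.68 (SD, n = 4) in telogen and 80.6 ± 1.46 (SD, n = 4) in catagen. chi-miR-100-5p made up 9.71 ± 0.976 and 13.1 ± 1.16, and chi-miR-99b-5p 3.83 ± 0.999 and 6.07 ± 0.634. Both 3p arms together stayed below 1% of the family in every library.

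**Figure D2:**
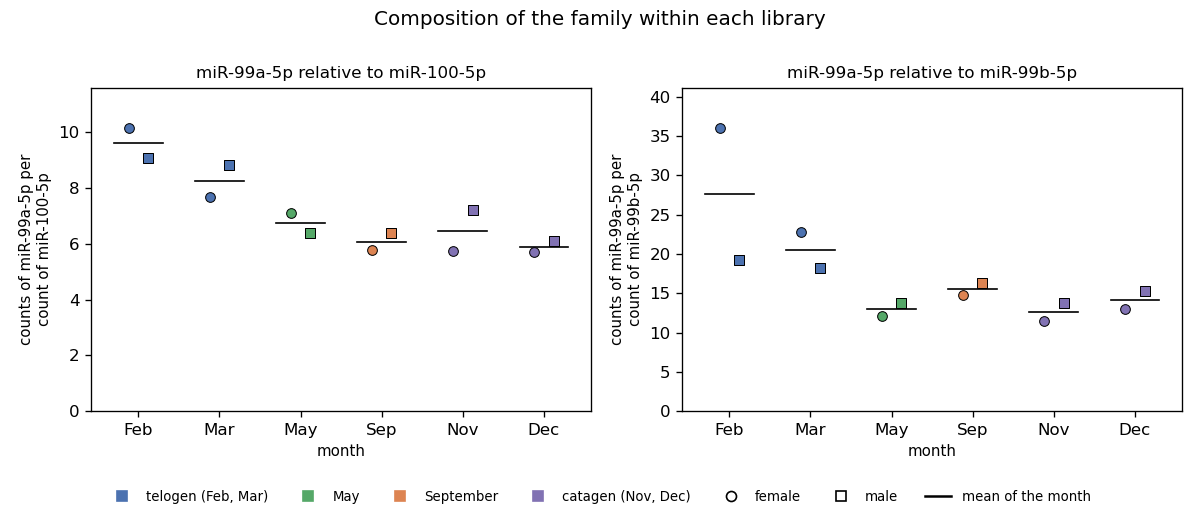
Counts of chi-miR-99a-5p per count of chi-miR-100-5p (left) and per count of chi-miR-99b-5p (right) in each library by month; circles are female libraries, squares male libraries, colours the 4 groups and bars the mean of the month. In both panels the 4 telogen libraries, at 7.68 or more and at 18.2 or more, are above all others.

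The arms of the miR-99a precursor changed relative to each other in the opposite direction to the arms of miR-99b between May and September. The miR-99a precursor gave 390 and 286 counts of 5p per 3p count in February, 230 and 229 in March, 171 and 145 in May, 539 and 581 in September, 463 and 451 in November, and 287 and 538 in December, female library first. May was lowest and September highest, without overlap with any other group, and the female December library lay within the telogen range. In limma across the 87 precursors with both arms at a mean of at least 10 counts, the log2 arm ratio rose by 1.82 from May to September (SE 0.34, adjusted p = 0.000415), the 11th largest of the 87 changes in absolute size. In that comparison 37.9% of precursors passed, 10 toward the 5p arm and 23 toward the 3p arm.

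The miR-99b precursor gave 153 and 147 counts of 5p per 3p count in February, 255 and 134 in March, 211 and 218 in May, 89.2 and 107 in September, 140 and 153 in November, and 141 and 123 in December. September was lowest, and the May libraries stood above all but the female March library. From May to September its log2 arm ratio fell by 1.10 (SE 0.32, limma adjusted p = 0.00825). Without the male May or the female September library this adjusted p became 0.0547 and 0.067.

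From May to catagen the miR-99a ratio rose by 1.42 (limma adjusted p = 0.000641), where 41.4% of precursors passed, and the miR-99b ratio differed by -0.61 (adjusted p = 0.0816). From telogen to September the miR-99a ratio rose by 1.01 (adjusted p = 0.0119) and the miR-99b ratio fell by 0.75 (adjusted p = 0.0373), in a comparison in which 39.1% passed. Without either September library the miR-99a value was 1.07 or 0.96 with an adjusted p of 0.0683 or 0.0679, and the miR-99b value lost its call without the female March (adjusted p = 0.0998) or either September library (0.222 and 0.0679). From telogen to catagen the miR-99a ratio rose by 0.61 (limma adjusted p = 0.0434, 49.4% of precursors passing), which lost its call without any 1 of 8 libraries (adjusted p up to 0.133), namely either May library, either November library, either March library, male February or male December. The miR-99b ratio differed by -0.25 there (adjusted p = 0.362).

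From telogen to May the ratios differed by -0.81 for miR-99a (limma adjusted p = 0.0603) and by 0.35 for miR-99b (adjusted p = 0.382), with 11.5% of precursors passing. Without the male March or the female December library the miR-99a adjusted p was 0.0476 and 0.0347. From February to May against September to December the miR-99a ratio rose by 1.02 (adjusted p = 0.000145) and the miR-99b ratio fell by 0.54 (adjusted p = 0.0193, and 0.0764 without the female March library), where 63.2% of precursors passed. No precursor passed in limma from September to catagen (0%), where 5 of 87 had an unadjusted p below 0.05 and neither miR-99a (-0.40) nor miR-99b (0.50) was among them. DESeq2 was not run on arm ratios.

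**Figure D3:**
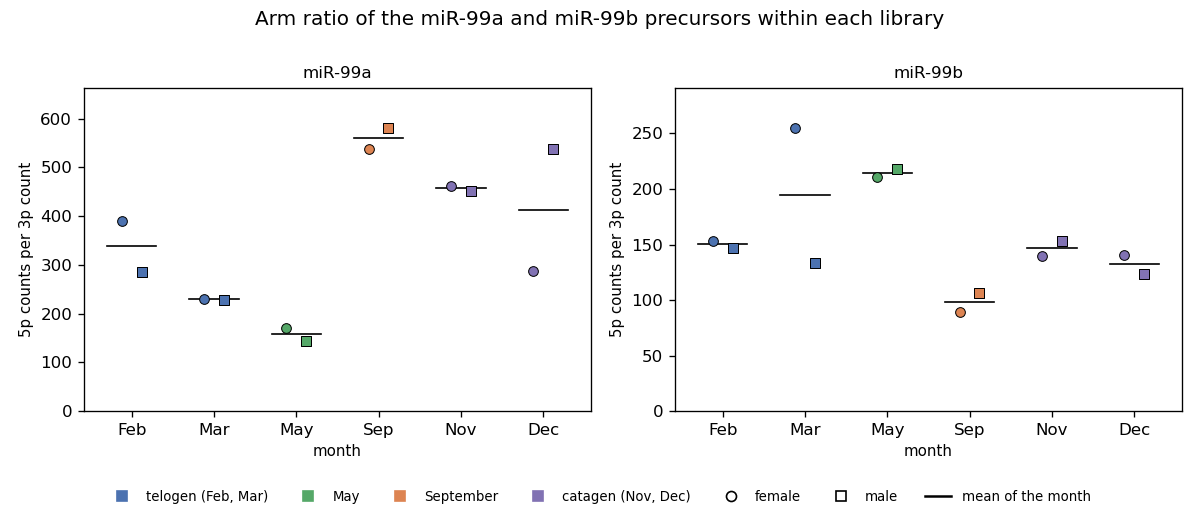
Counts of the 5p arm per count of the 3p arm for the miR-99a (left) and miR-99b (right) precursors in each library by month, on separate axes from 0; circles are female libraries, squares male libraries, colours the 4 groups and bars the mean of the month. miR-99a moves from 145 and 171 in May to 539 and 581 in September, and miR-99b from 211 and 218 to 89.2 and 107.

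Levels were then set against each other between groups by edgeR (quasi-likelihood, TMM scaling of counts), with Benjamini-Hochberg adjustment over the 300 miRNAs. From May to September 4 of the 5 members passed at an adjusted p below 0.05, 3 higher and 1 lower, beside 34% of all miRNAs tested, and 2 of them changed at least 2-fold, beside 18.3% of all. The median log2 fold change was 0.72 over the members and 0.07 over all miRNAs. chi-miR-99b-3p rose by 1.60 on the log2 scale (SE 0.38, adjusted p = 0.00749), from TMM-scaled CPM of 7.36 and 5.95 in the May libraries to 24.2 and 16.5 in September. chi-miR-100-5p rose by 0.88 (SE 0.17, adjusted p = 0.0024), from 2647 and 2787 to 5528 and 4482 TMM-scaled CPM.

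chi-miR-99a-5p rose by 0.72 in the same comparison (SE 0.19, adjusted p = 0.0116), from 18855 and 17854 to 31990 and 28633 TMM-scaled CPM, while its 3p arm fell by 1.10 (SE 0.21, adjusted p = 0.00241), from 110 and 123 to 59.4 and 49.3. chi-miR-99b-5p differed by 0.46 (adjusted p = 0.0941). The 5p arm and the 3p arm of miR-99a thus moved in opposite directions with TMM scaling. The May and September libraries did not overlap for any of the 5 members, as for 225 of the 300 miRNAs tested.

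The rises passed with TMM, with median-of-ratios (RLE) scaling and with DESeq2, and not with library totals. Then, chi-miR-100-5p differed by 0.35, chi-miR-99a-5p by 0.19 and chi-miR-99b-3p by 1.07, none of them past the threshold, and chi-miR-99b-5p turned to -0.07. The fall of chi-miR-99a-3p, -1.63 with library totals (adjusted p = 0.00105), passed under both scalings. With more than 5 CPM required in all 12 libraries, which alters the TMM factors, chi-miR-99a-5p differed by 0.49 and did not pass. Without the female May, the male May or the female September library the chi-miR-99a-5p and chi-miR-99b-3p calls were lost, and without the female May library chi-miR-100-5p had an adjusted p of 0.0592.

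From telogen to May 1 of 5 members passed with edgeR, beside 5.33% of all miRNAs, and no member reached 2-fold, beside 2.33% of all. DESeq2 likewise gave 1 and 0 members, beside 40 and 12 of all miRNAs. An unadjusted edgeR p below 0.05 was seen for 2 members, beside 88 of the 300 miRNAs tested. The member that passed was chi-miR-99a-5p, which fell by 0.76 (SE 0.17, edgeR adjusted p = 0.0307). Its TMM-scaled CPM lay between 26799 and 39853 in the 4 telogen libraries and was 18855 and 17854 in May. The fall was also past the threshold with library totals, at -0.55 (adjusted p = 0.0408). Its adjusted p passed 0.05 without the male February or either May library, and was highest at 0.339. chi-miR-100-5p differed by -0.35 (adjusted p = 0.149), and the remaining 3 members by -0.32 to 0.09.

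From telogen to catagen 4 of 5 members passed with edgeR, 3 higher and 1 lower, beside 35% of all miRNAs tested. None reached 2-fold with edgeR, beside 10.7% of all, or with DESeq2, beside 38 of all miRNAs. The median log2 fold change was 0.42 over the members and -0.00064 over all. chi-miR-99b-5p rose by 0.68 (SE 0.14, adjusted p = 0.00323), from 1106 to 1564 TMM-scaled CPM across the telogen libraries to 1879 to 2443 across the catagen libraries. chi-miR-99b-3p rose by 0.88 (SE 0.26, adjusted p = 0.0224) and chi-miR-100-5p by 0.42 (SE 0.12, adjusted p = 0.016).

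chi-miR-99a-3p fell by 0.71 in that comparison (SE 0.15, edgeR adjusted p = 0.00327). It lay between 102 and 119 TMM-scaled CPM in telogen and between 58.1 and 85.4 in catagen. These groups did not overlap, as for 90 of the 300 miRNAs tested. chi-miR-99a-5p differed by -0.12 (adjusted p = 0.475), with overlapping groups. With library totals chi-miR-99a-5p fell by 0.48 (adjusted p = 0.00663) and chi-miR-99a-3p by 1.07 (adjusted p = 0.00112), and the 3 rises were no longer past the threshold; with RLE scaling chi-miR-100-5p differed by 0.33 and did not pass. Leaving out the male March library ended the call of chi-miR-100-5p (adjusted p = 0.0559), and leaving out the female February, the female November or the male December library ended that of chi-miR-99b-3p (adjusted p of at most 0.0624).

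From May to catagen all 5 members passed, 4 higher and 1 lower, beside 37% of all miRNAs tested, and chi-miR-99b-3p reached 2-fold (1.20, adjusted p = 0.0158), beside 16.7% of all. Without the female or without the male May library 1 member passed, and without the male May library none reached 2-fold. From telogen to September 4 of 5 passed, 3 higher and 1 lower, beside 25.3% of all. Of these, chi-miR-99a-3p (-1.03, edgeR adjusted p = 0.00285) and chi-miR-99b-3p (1.28, adjusted p = 0.0119) changed at least 2-fold, beside 9.33% of all. The rise of chi-miR-99b-5p (0.56, edgeR adjusted p = 0.0284) lost its call with RLE scaling (adjusted p = 0.0533). It also lost its call without the female February, female March, male March or male December library (adjusted p of 0.0533 to 0.078). Without the female September library 1 member passed there and without the male March library 2, and without either September library 1 reached 2-fold. The fall of chi-miR-99a-3p passed with library totals in both comparisons, and no rise did. With TMM scaling its change from May to catagen was -0.78, and -0.71 without the male May library, where its call was lost.

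With 6 libraries a side, February to May against September to December, 4 of 5 members passed, 3 higher and 1 lower, beside 48.3% of all miRNAs tested, and 1 reached 2-fold (0 without the female March library), beside 12.7% of all. chi-miR-99a-3p fell by 0.84 (SE 0.13, adjusted p = 0.000548) and by 1.26 with library totals (adjusted p = 0.00011). chi-miR-99b-3p rose by 1.12 (SE 0.24, adjusted p = 0.00287) and by 0.69 with library totals (adjusted p = 0.0447). chi-miR-100-5p rose by 0.57 (adjusted p = 0.00125) and chi-miR-99b-5p by 0.60 (adjusted p = 0.00207) with TMM scaling, and neither passed with library totals. chi-miR-99a-5p differed by 0.17 (adjusted p = 0.179) with TMM scaling and by -0.25 (adjusted p = 0.0303) with library totals, so its direction over the year depended on the scaling.

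No member passed from September to catagen, where edgeR called 0% of all miRNAs at 2-fold and 0% at any fold; 23 of 300 had an unadjusted p below 0.05, none of them members, and DESeq2 called 1 miRNA at 2-fold and 3 at any fold. Between female and male libraries, with month in the fit, edgeR called 0% at 2-fold and 0% at any fold, 34 of 300 had an unadjusted p below 0.05, none of them members, and DESeq2 called 0.

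**Figure D4:**
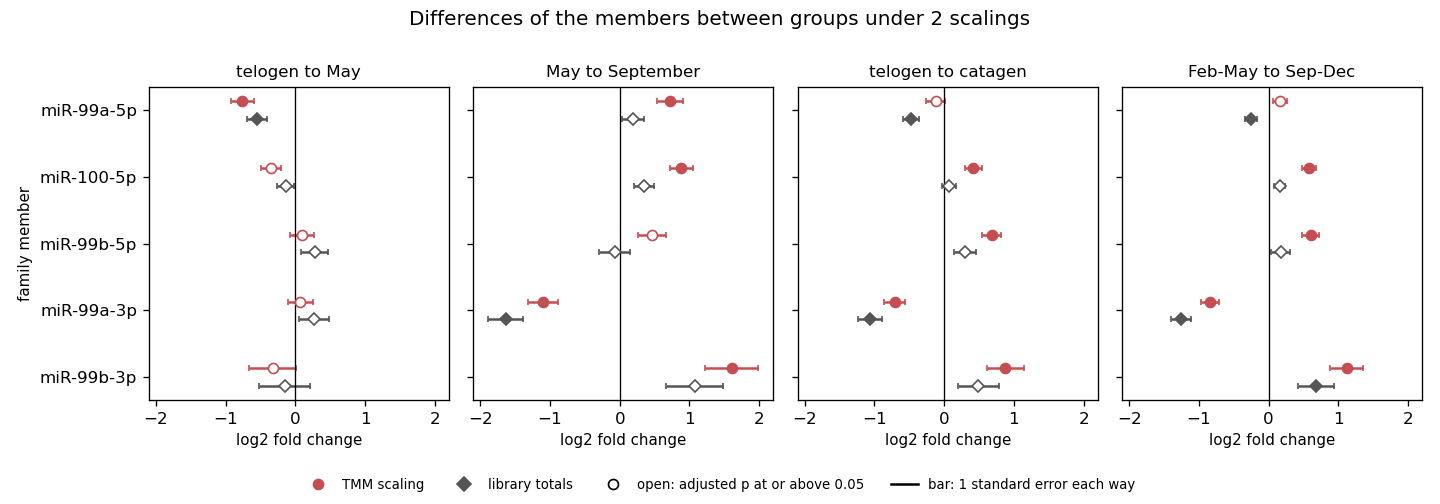
Log2 fold change of each member (horizontal axis) in 4 comparisons with TMM scaling (red circles) and with library totals (grey diamonds); bars are 1 standard error each way and open symbols have an adjusted p at or above 0.05. From May to September chi-miR-99a-3p is at -1.10 and -1.63, while chi-miR-99a-5p is at 0.72 and 0.19.

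The family total followed its main member and could be read only with its scaling. In TPM it was higher by 0.19 on the log2 scale in September than in May and lower by 0.37 in catagen than in telogen (pooled SD of log2 values 0.11), and with TMM scaling these differences were 0.72 and -0.01. As a sum over the members it was not tested.

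The miRNAs encoded beside the members were compared with them. chi-miR-99b-5p and chi-let-7e-5p, a let-7 product from the neighbouring hairpin, ran together, with 1.28 to 1.63 counts of chi-miR-99b-5p per chi-let-7e-5p count over the 12 libraries and a Pearson r of 0.95 between their log2 TMM-scaled CPM (0.90 with library totals). chi-let-7e-5p too was lowest in TPM in the female February (833) and female March (767) libraries. chi-miR-99a-5p and chi-let-7c-5p, also from adjacent hairpins, did not run together, with 3.99 to 8.86 counts of the former per count of the latter and r = 0.14 (0.04 with library totals). These values share libraries and depth, and goat let-7c reads may match other let-7 members.

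Between chi-miR-99a-5p and chi-miR-125b-5p, the third product of that cluster, which also comes from a copy elsewhere in vertebrate genomes, r was -0.87 with TMM scaling and -0.30 with library totals. There were 22.5 and 24.4 counts of chi-miR-99a-5p per chi-miR-125b-5p count in May, and 45.0 to 91.5 in the other 10 libraries. From May to September chi-miR-125b-5p fell by 0.52 (edgeR adjusted p = 0.0263) and chi-miR-125b-3p rose by 1.43 (adjusted p = 0.00241), the reverse of the arms of miR-99a. Over the 10 listed arms of let-7a, let-7c, let-7e, miR-125a and miR-125b, 2 rose and 2 fell from May to September, beside 34% of all miRNAs passing, and 4 rose from telogen to catagen, beside 35%, at an adjusted p below 0.05. With library totals 1 of the 10 was higher and 4 were lower from May to September, and 0 passed from telogen to catagen (4 with TMM), where the lowest adjusted p was 0.0558.

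In arm ratio, miR-125b, whose counts may pool more than 1 gene copy, fell by 1.92 from May to September (limma adjusted p = 8.56e-05). That of miR-125a fell by 1.51 (adjusted p = 0.000628). Both moved toward the 3p arm as miR-99b did, and let-7a, let-7c and let-7e did not pass (adjusted p from 0.0665 to 0.64). The wider relatives chi-miR-10a and chi-miR-10b, whose 5p arms resemble those of the miR-99 family, passed in none of their 4 arms from May to September with TMM scaling, and both 5p arms rose from telogen to catagen, by 0.73 (edgeR adjusted p = 0.00755) and 0.47 (adjusted p = 0.045). With library totals chi-miR-10a-3p (-1.02, adjusted p = 0.0269) and chi-miR-10b-3p (-0.88, adjusted p = 0.0289) fell from May to September, and the 5p rises did not pass (adjusted p = 0.0797 and 0.483). The miR-10a arm ratio rose by 0.85 from May to September (limma adjusted p = 0.0388), toward the 5p arm as that of miR-99a did, and that of miR-10b differed by 0.80 (adjusted p = 0.0665).

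The 5p members were most like different miRNAs over the 12 libraries, as Pearson r of log2 TMM-scaled CPM. chi-miR-100-5p was most like chi-miR-151-3p (0.94), chi-miR-30e-3p (0.92) and novel_131 (0.92). chi-miR-99a-5p was most like chi-miR-33a-3p (0.88), chi-miR-29b-3p (0.83) and chi-miR-26b-5p (0.81), and chi-miR-99b-5p was most like chi-miR-106b-3p (0.95), chi-let-7e-5p (0.95) and chi-miR-1468-5p (0.93). Among the members, r was 0.64 between chi-miR-99a-5p and chi-miR-100-5p, 0.11 between chi-miR-99a-5p and chi-miR-99b-5p, -0.41 between the arms of miR-99a and 0.88 between the arms of miR-99b. These values share the TMM factors of each library, and with library totals 1 of the 3 most alike miRNAs was kept for each 5p member.

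Levels of miRNAs linked to skin compartments were set beside these differences. The study cut away epidermis and connective tissue before separating the follicles, and several of the miRNAs listed, miR-143, miR-199 and miR-203 among them, are also made within hair follicles, so the sums do not single out cells from outside the follicle. The 6 dermal mesenchyme miRNAs (the miR-199, miR-214, miR-143 and miR-145 arms), all listed, summed to 108217 and 108498 TMM-scaled CPM in May, 153432 and 165702 in September, 100129 to 139961 in telogen and 136032 to 161408 in catagen. Of the 6 epidermal miRNAs (miR-203, the miR-200 family, miR-205 and miR-184) 5 were listed, at 63128 and 70759 in May, 67184 and 79847 in September, 55297 to 78345 in telogen and 78412 to 104432 in catagen. In TPM the dermal sums were 135108 and 139576 in May and 139936 and 140485 in September. The direction of the epidermal sums turned with the scaling, since in TPM they were 81210 and 88342 in May and lower, at 56960 and 72823, in September.

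Of the lists for other tissues, 4 of 4 muscle miRNAs were listed, at 1466 to 4170 TMM-scaled CPM, and 1 of them was at 0 in at least 1 library. Both endothelial miRNAs (the miR-126 arms) summed to 7133 to 13717, 3 of 5 leukocyte miRNAs to 328 to 629, and 2 of 3 erythrocyte miRNAs to 6.39 to 93.7. The part of these cell types in the differences of the family was not tested, and in bulk tissue a smaller share of a cell type and less of a miRNA per cell cannot be told apart. The ratios of 5p to 3p arms of miR-99a and of miR-99b compare the arms listed for each precursor. The 5p count of miR-99a may hold reads of miR-100-5p, and the part of cell types in these ratios was not tested either.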

How the data were processed

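Small RNA libraries were made from secondary hair follicles dissected from goat skin and sequenced by the authors, who aligned reads to the goat build CHIR_2.0. Per the study's methods, miREvo and mirDeep2 served for miRNA identification, and Bowtie (0.12.9 in the submitters' processing notes) for quantification. The authors deposited, per library, a raw count and a TPM value for each miRNA. Recomputing CPM from each count column gave the deposited TPM to within 0.005. Libraries were grouped by labelled month, and all 12 were kept. A check for a library deposited again found no pair of a month within sampling noise (chi-square 65.2 to 635 times its degrees of freedom), which says nothing about the spread between animals.

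Counts were tested with edgeR 4.0.16 (R 4.3.3, TMM, quasi-likelihood, Benjamini-Hochberg over 300 miRNAs with more than 5 CPM in at least 2 libraries, called at an adjusted p below 0.05, also with at least 2-fold change), in 1 fit over the 4 groups, over 6 months for February to May against September to December, or with sex and month. Log2 arm ratios, with 1 added to each arm, were tested with limma 3.58.1 over 87 of the 112 precursors with both arms listed. Ratios between members used exact permutation tests over single libraries, in which the libraries of a month were not kept together. DESeq2 1.42.0 was an alternative. The edgeR and limma steps were tested on data simulated for May to September. There edgeR called 103 of 154 miRNAs with a true 2-fold change and 4 of 138 unchanged ones. On arm ratios limma called 19 of 20 precursors with a true 4-fold change and 2 of 67 unchanged ones. A count of 3, taken as the floor, equals 0.518 to 0.957 TPM.

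Named miRNAs were all members, the listed arms of let-7a, let-7c, let-7e, miR-125a and miR-125b, the arms of miR-10a and miR-10b, and the 3 miRNAs most correlated with each 5p member. Members and lists were chosen with earlier results of these data known. Gene order is from RefSeq, assembly ARS1.2, without coordinates because the builds differ. The 12 libraries share no labelled batch other than month and sex.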

Additional observations from a re-analysis of the deposited data

Results flagged for a closer look

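The ratio of 5p to 3p counts of the miR-99b precursor in the telogen group stood apart in 1 library, the female March library at 255 counts of 5p per 3p count, against 134 to 153 in the other 3 (gap over range 0.838, above Dixon's 95% critical value for 4 values). It rests on 25 counts of chi-miR-99b-3p. Members, the family total and the ratios were checked in 20 groups of 4 libraries, in which chance flags about 1 in 20. No member passed edgeR's interaction test of sex with the change from telogen to catagen, with adjusted p from 0.296 to 0.683. Few libraries per sex and group limit this test. Female and male changes were -0.33 and 0.11 for chi-miR-99a-5p, 0.29 and 0.55 for chi-miR-100-5p, and 0.89 and 0.48 for chi-miR-99b-5p. For the 3p arms they were -0.61 and -0.82 (chi-miR-99a-3p) and 1.25 and 0.47 (chi-miR-99b-3p).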

How the results depend on the processing

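Apart from leaving out libraries, scaling by library totals changed the most calls. With library totals in place of TMM, 1 member was called at 2-fold or more from May to September, from telogen to catagen and from telogen to September. At any fold the count was 1 from May to September, May to catagen and telogen to September and 2 from telogen to catagen. How many of all miRNAs passed with library totals is not given here. chi-miR-99a-5p turned to -0.25 from February to May against September to December, and chi-miR-99b-5p to -0.070 from May to September. The filter of more than 5 CPM in all 12 libraries, which changes the TMM factors, left 1 member at 2-fold from May to September and from telogen to September, and 2 at any fold from May to September, May to catagen and telogen to September; it left out chi-miR-99b-3p. Fitting only the groups compared gave 1 member in both counts from telogen to September and 0 at any fold from telogen to May, as did no filter on low counts. The family total, set out in TPM, was 0.72 with TMM and 0.68 with RLE scaling from May to September, -0.014 and -0.10 from telogen to catagen, and 0.23 and 0.16 from February to May against September to December, where TPM gave -0.18; without chi-miR-99a-5p it was 0.12 and 0.14 in the latter comparisons. The rise of chi-miR-99b-5p over chi-miR-99a-5p was 1.22 in female and 0.37 in male libraries alone. With all 112 precursors the telogen to catagen arm ratio of miR-99a (0.61) and the telogen to September ratio of miR-99b (-0.75) no longer passed.

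With 1 library left out in turn, members called at 2-fold ranged from 1 to 2 (May to September and telogen to September), 0 to 1 (telogen to catagen, May to catagen, and February to May against September to December), and at any fold from 1 to 4 (May to September and telogen to September), 0 to 1 (telogen to May) and 1 to 5 (May to catagen). Non-called values that changed sign were chi-miR-99a-3p from telogen to May (-0.0010 to 0.32), and chi-miR-99a-5p from telogen to catagen (-0.23 to 0.018) and to September (-0.20 to 0.093). The log2 ratio to chi-miR-99a-5p differed by 0.47 to 0.61 for chi-miR-100-5p and 0.59 to 0.91 for chi-miR-99b-5p from telogen to catagen. Both calls were lost there without the female February, male February, female November or female December library (permutation test, adjusted p of 0.0571 to 0.0762). From February to May against September to December the ratios differed by 0.34 to 0.47 and 0.26 to 0.57. The miR-99a arm ratio changed by 0.50 to 0.80 from telogen to catagen, -0.93 to -0.65 to May and 0.92 to 1.18 to September. That of miR-99b changed by -1.23 to -0.98 from May to September, -0.65 to -0.55 from May to catagen, -0.88 to -0.55 from telogen to September, and -0.69 to -0.39 from February to May against September to December.

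The female and the male library of a month do not come from shared animals. With sex as a replicate block the members called at any fold numbered 4 from May to September, 4 from telogen to catagen and 5 from May to catagen, as without it, and no call changed. The 3p arm of miR-99b, at 24 to 111 counts, limits its arm ratio.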
